A study of Mus musculus with 16 samples.

Results

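The Sm, LSm and SF3B genes encode core proteins of the spliceosome, the machine of RNA and protein that cuts introns out of pre-mRNA. They were taken by name, as the genes of the RNA matrices whose symbol starts with Snrp, with Sf3b or with Lsm and a digit, without Snrpn and without pseudogenes. This gave 30 of 32285 genes. Not all of them build a Sm or LSm ring. 7 genes encode the Sm ring (Snrpb, Snrpd1, Snrpd2, Snrpd3, Snrpe, Snrpf and Snrpg), and 8 encode the LSm rings (Lsm1 to Lsm8). Snrpa and Snrpc encode proteins of the U1 particle, Snrpa1 and Snrpb2 proteins of the U2 particle, and 6 genes encode proteins of SF3B, a subcomplex of U2. Proteins of these particles whose genes have other names are not among the 30. Lsm10 and Lsm11 take the place of 2 Sm proteins in the U7 particle, which processes histone mRNA, and Lsm12, Lsm14a and Lsm14b carry an LSm fold but are not known as ring subunits of a spliceosomal particle. The genes were proposed as a group after V321L and WT nuclei had been compared in these data. The values of that comparison are therefore a description of the genes.

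Sm proteins close into a ring around the U1, U2, U4 and U5 small nuclear RNAs, helped in the cytoplasm by the SMN complex. A ring of LSm2 to LSm8 binds the U6 small nuclear RNA in the nucleus. With LSm1 in the place of LSm8, nearly the same ring acts in the cytoplasm, where it binds mRNAs that have lost their poly(A) tail and promotes the removal of their cap. SF3B belongs to U2, and its largest subunit, SF3B1, holds the branch site of the intron. Most of these proteins are needed in every cell, and their mRNAs are translated in the cytoplasm, so that nuclei hold only part of the transcripts of their genes.

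The nuclei came from the microdissected and frozen dentate gyrus (DG) of 4 WT and 4 V321L mice, with 2 females and 2 males per genotype (F1, F2, M1 and M2) and 1 library per mouse. V321L mice were homozygous for the missense mutation V321L of Nrg1, which encodes neuregulin 1, a membrane-bound ligand whose intracellular part can signal to the nucleus, and WT mice did not carry it. The labels give no treatment for either group, and the age of these mice is not given in the sources used here. Each library measured the RNA, as unique molecular identifiers (UMIs), and the accessible chromatin (ATAC) of the same nuclei.

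The V321L libraries stood apart from the WT libraries in several measures. They held between 15505354 and 23582057 RNA UMIs against 4326426 to 14624265 in WT. The median nucleus had 2676 to 4140 UMIs in V321L mice and 1093 to 1914 in WT mice, and its mitochondrial share was 0.389% to 1.17% against 0.0693% to 0.128%. Any pair of libraries shared between 1 and 12 barcodes of nuclei. Because these measures differed between all mice of one genotype and all mice of the other, library and genotype cannot be told apart in any comparison of V321L with WT below. Granule nuclei were gated by 9 marker genes of dentate granule cells, which gave 1296, 2446, 1268 and 1531 nuclei in the WT mice and 1143, 1181, 825 and 887 in the V321L mice. The 9 markers together reached between 8427 and 9386 unscaled CPM (UMIs set to one common total per mouse, without TMM scaling) in the granule nuclei of WT mice and between 5708 and 6311 in those of V321L mice, and each of them was detected. Of the marker lists of 8 other classes, 4 were lower in all V321L than in all WT granule nuclei. Astrocyte markers summed to 1138 to 1315 unscaled CPM in WT and 719 to 886 in V321L mice, other excitatory markers to 212 to 274 and 152 to 163, microglia markers to 107 to 244 and 67.7 to 105, and those of oligodendrocyte precursors to 40.6 to 57.3 and 25.1 to 34.0. Their part in the results was not tested.

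In granule nuclei most of these genes were higher in V321L than in WT mice. 28 of the 30 passed the filter on low counts, and of these 25 were higher, 2 were lower (Sf3b1 and Lsm14a) and 1 was not called (Lsm14b), by the quasi-likelihood test of edgeR with a Benjamini-Hochberg adjusted p under 0.05. Over the 28 genes the log2 fold change of V321L over WT had a median of 1.49, ranging from -0.74 to 5.82, beside a median of 0.11 over all 12341 genes tested. In the same comparison 70.2% of all genes tested were called, 38.4% as higher and 31.8% as lower, and nothing is read from the members' count, because they were proposed from this comparison. Some of them, such as Sf3b5 and Snrpd2, also passed the filter only through the V321L mice, in which they were high. In 21 of the 28 genes every V321L mouse was above every WT mouse, as in 34.2% of all genes, and in 2 every V321L mouse was below, as in 28.6% of all genes. With library sizes in place of TMM scaling the median of all genes moved by 0.45, from 0.11 to 0.56, and the share of calls that were higher from 54.7% to 75.5%. Under that scaling 26 of the 28 genes were higher and the same number, 2, lower, beside 6639 higher and 2160 lower of all 12341 genes. The median of the 28 genes less that of all genes was 1.39 in place of 1.38. The level of a gene is given below in CPM, the UMIs of the gene scaled to one common total for the granule nuclei of every mouse, with TMM scaling, in the order F1, F2, M1 and M2.

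All 7 genes of the Sm ring were higher in V321L mice, with a median log2 fold change of 1.73. Snrpd2 had the largest difference among them. Its level was 2.53, 1.89, 1.90 and 1.26 CPM in WT mice and 65.2, 32.0, 32.2 and 70.6 CPM in V321L mice, a log2 fold change of 4.70 ± 0.383 (SE). The lowest V321L mouse was thus far above the highest WT mouse, and within V321L the mice F1 and M2 were higher than F2 and M1. In reads this was a step from 21 UMIs in all WT granule nuclei to 888 in all V321L granule nuclei. Snrpe and Snrpg, the smallest Sm proteins together with Snrpf, followed at log2 fold changes of 2.37 ± 0.248 and 2.21 ± 0.231. Snrpe was at 5.78, 3.78, 6.98 and 4.74 CPM in WT and at 33.3, 21.4, 20.05 and 31.5 CPM in V321L mice. Snrpg was at 8.31, 7.02, 8.25 and 5.05 CPM in WT and at 42.1, 26.4, 24.9 and 37.7 CPM in V321L mice. In both genes F1 and M2 were again the higher V321L mice, and no V321L mouse overlapped with WT.

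Snrpb, which encodes the SmB protein, was the most even Sm gene among WT mice, at 20.6, 20.5, 19.0 and 19.3 CPM, and stood at 68.2, 60.1, 51.5 and 84.95 CPM in V321L mice (log2 fold change 1.73 ± 0.160). Snrpd1 was at 17.3, 16.7, 13.3 and 18.6 CPM in WT and at 55.9, 39.2, 38.5 and 57.7 CPM in V321L mice (1.505 ± 0.178). The 2 genotypes did not overlap in either gene. Snrpf and Snrpd3 had the smallest differences of the ring. Snrpf was at 15.2, 11.9, 15.2 and 9.15 CPM in WT and at 32.2, 23.4, 18.9 and 37.7 CPM in V321L mice (1.14 ± 0.238). Snrpd3 was at 19.5, 12.7, 16.5 and 16.1 CPM in WT and at 31.7, 25.1, 20.7 and 36.9 CPM in V321L mice (0.82 ± 0.201), so that M1 of V321L lay close above F1 of WT. Subunits that are joined in equal numbers in the protein ring therefore differed widely in their fold change, from 0.82 for Snrpd3 to 4.70 for Snrpd2. The fold changes of Snrpd3 and Snrpd2 are those of 2 genes that were at 16.2 ± 2.793 and 1.90 ± 0.517 CPM in WT and at 28.6 ± 7.12 and 50.01 ± 20.8 CPM in V321L mice (SD, n = 4). Among nuclei with a mitochondrial share between 0.2% and 0.6% only, Snrpd3 was no longer called (log2 fold change 0.65 ± 0.320, adjusted p = 0.0875 by edgeR). Reads of small Sm genes can also match processed pseudogenes, and Snrpb and Snrpn code for nearly the same protein, so that the division of reads among such copies is uncertain.

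**Figure D1:**
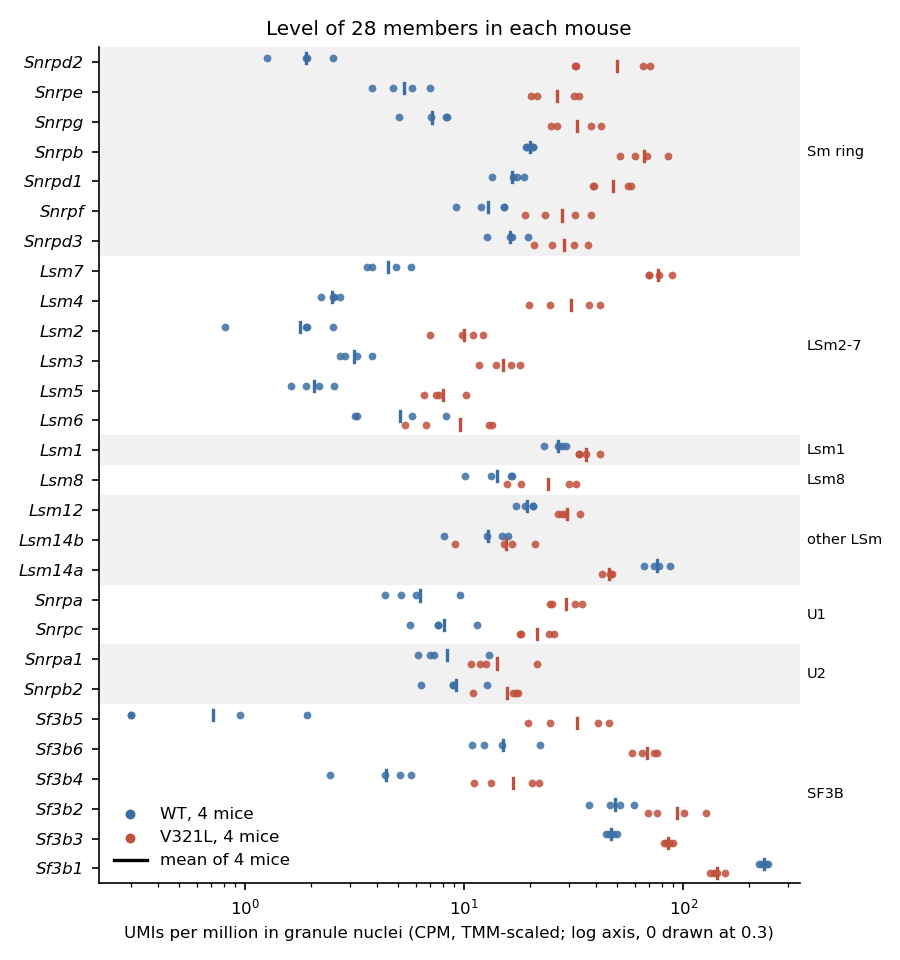
Level in granule nuclei (CPM, TMM-scaled, log axis) of the 28 genes that passed the filter on low counts, grouped by role. Each point is 1 mouse (4 WT in blue, 4 V321L in red), the bars are means of 4 mice, and a level of 0 is drawn at 0.3. Sf3b1 and Lsm14a are the 2 genes whose V321L mice all lie below the WT mice.

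The 6 subunits that both LSm rings share were all higher in V321L mice, with a median log2 fold change of 2.40. Lsm7 had the largest difference of them. It was at 3.61, 4.86, 3.81 and 5.68 CPM in WT and at 88.6, 69.7, 69.9 and 77.6 CPM in V321L mice, a log2 fold change of 4.04 ± 0.172. Lsm4, whose product carries an arginine- and glycine-rich tail, was at 2.53, 2.70, 2.54 and 2.21 CPM in WT and at 37.1, 24.6, 19.8 and 41.6 CPM in V321L mice (3.60 ± 0.304). Both genes were scarce in all WT mice and reached at least 19.8 CPM in all V321L mice. In V321L mice Lsm2, Lsm3 and Lsm5 were at lower levels than Lsm7 and Lsm4, and they differed less between the genotypes. Lsm2 was at 2.53, 0.809, 1.90 and 1.89 CPM in WT and at 12.2, 9.72, 6.99 and 10.97 CPM in V321L mice (2.52 ± 0.336). Lsm3 was at 3.25, 2.70, 3.81 and 2.84 CPM in WT and at 16.3, 13.97, 11.7 and 18.0 CPM in V321L mice (2.28 ± 0.240). Lsm5 was at 2.17, 1.62, 2.54 and 1.89 CPM in WT and at 7.70, 6.53, 7.46 and 10.1 CPM in V321L mice (1.97 ± 0.288). None of these 5 genes overlapped between the genotypes.

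Lsm6 was the exception among the shared subunits, because its mice overlapped. It was at 5.78, 3.24, 8.25 and 3.16 CPM in WT and at 13.4, 6.68, 5.36 and 12.9 CPM in V321L mice (log2 fold change 0.999 ± 0.381). Its call rested on single mice. It was lost without F2 of WT (0.78, adjusted p = 0.114), without M2 of WT (0.78, adjusted p = 0.113), without F1 of V321L (0.79, adjusted p = 0.0922) and without M2 of V321L (0.84, adjusted p = 0.0730), each by edgeR. After the free RNA expected in the nuclei had been subtracted, the difference was 0.10 ± 0.450.

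The subunits that set the rings apart differed less than most of the shared ones. Lsm8, the nuclear one, was at 10.1, 13.2, 16.5 and 16.4 CPM in WT and at 29.9, 18.2, 15.6 and 32.3 CPM in V321L mice (0.77 ± 0.252), and the mice overlapped. Lsm1, the cytoplasmic one, was at 27.8, 23.2, 29.2 and 26.8 CPM in WT and at 35.8, 33.4, 33.3 and 41.6 CPM in V321L mice (0.44 ± 0.135), with no overlap. Neither call was firm. Lsm8 was not called by edgeR without F1 of WT (0.60, adjusted p = 0.0629), and among nuclei with a mitochondrial share between 0.2% and 0.6% its log2 fold change was 0.07 ± 0.293. Lsm1 was not called without F2 of WT (0.33, adjusted p = 0.0580).

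Of the LSm proteins outside these rings, Lsm14a was lower in V321L mice. Lsm14a encodes a protein of P-bodies, where mRNAs are held and decapped. Its level was 77.7, 73.4, 66.0 and 86.8 CPM in WT and 47.3, 46.8, 42.7 and 46.4 CPM in V321L mice, a log2 fold change of -0.74 ± 0.112 with every V321L mouse below every WT mouse. Over 22 alternatives the log2 fold change of Lsm14a ranged from -0.86 to -0.29, and the call was never lost. Its paralog Lsm14b was not called (0.30 ± 0.264), at 12.9 ± 3.45 CPM in WT and 15.5 ± 4.95 CPM in V321L mice (SD, n = 4). Lsm12 was at 20.6, 20.5, 17.1 and 18.9 CPM in WT and at 28.8, 27.9, 26.8 and 33.8 CPM in V321L mice (0.59 ± 0.138). For Lsm12 the call was lost among nuclei with a mitochondrial share between 0.2% and 0.6% (0.21 ± 0.275). Lsm10 and Lsm11, the U7 genes, were too low for the filter. Lsm10 had 2, 2, 3 and 0 UMIs in the granule nuclei of WT mice and 25, 11, 23 and 22 in those of V321L mice, which relative to all UMIs was a ratio of 9.57 (95% interval 4.44 to 24.6, exact and for counting error only). Lsm11 had 3, 5, 0 and 3 UMIs in WT and 6, 11, 2 and 5 in V321L mice, a ratio of 1.80 (0.851 to 4.08) whose interval holds 1.

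Both genes of U1 proteins in this group were higher in V321L mice. Snrpa, which encodes the U1 protein that binds the second stem loop of U1 RNA, was at 4.33, 5.13, 9.52 and 5.998 CPM in WT and at 32.2, 24.6, 25.2 and 34.6 CPM in V321L mice (2.29 ± 0.222). Snrpc, whose product helps U1 to recognise the start of an intron, was at 8.06 ± 2.42 CPM in WT and 21.5 ± 4.08 CPM in V321L mice (1.48 ± 0.221, SD, n = 4). Neither overlapped. The U2 genes of this group outside SF3B, whose products bind the U2 RNA as a pair, differed less and overlapped. Snrpa1 was at 6.14, 7.29, 6.98 and 12.9 CPM in WT and at 21.5, 11.8, 12.6 and 10.7 CPM in V321L mice (0.74 ± 0.286). Snrpb2 was at 12.6, 8.90, 6.35 and 8.84 CPM in WT and at 17.7, 10.9, 17.3 and 16.6 CPM in V321L mice (0.72 ± 0.228). The call of Snrpa1 was lost under 9 of 22 alternatives. Among these were the fits by edgeR without F1 of WT (0.56, adjusted p = 0.124), without F2 of WT (0.62, adjusted p = 0.111), without M1 of WT (0.63, adjusted p = 0.0860) and without F1 of V321L (0.48, adjusted p = 0.127). Snrpb2 was not called by edgeR among nuclei with a mitochondrial share between 0.2% and 0.6% (0.75 ± 0.327, adjusted p = 0.0564).

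The 6 SF3B genes taken by name were split, with 5 higher and 1 lower in V321L mice. The 1 lower gene was Sf3b1, the branch site subunit and the most abundant of all 30 genes. It was at 229, 243, 239 and 221 CPM in WT and at 138, 133, 143 and 156 CPM in V321L mice, a log2 fold change of -0.71 ± 0.0923 with no overlap. Over 22 alternatives this log2 fold change ranged from -0.80 to -0.27, and the call was never lost. Sf3b3 and Sf3b2, the other large subunits, were higher instead. Sf3b3 was at 45.5, 49.6, 47.6 and 44.2 CPM in WT and at 86.5, 81.2, 83.0 and 89.5 CPM in V321L mice (0.86 ± 0.101). Sf3b2 was at 59.6, 37.2, 46.3 and 51.5 CPM in WT and at 101, 75.8, 69.0 and 127 CPM in V321L mice (0.93 ± 0.195). Of these 3 genes Sf3b1 was the most abundant in both genotypes, at means of 233 ± 10.1 and 142 ± 9.76 CPM (SD, n = 4).

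The small subunits of SF3B differed most. Sf3b6, which contacts the branch point, was at 10.8, 14.8, 22.2 and 12.3 CPM in WT and at 73.4, 64.4, 58.5 and 75.4 CPM in V321L mice (2.23 ± 0.184). Sf3b4 was at 4.33, 2.43, 5.08 and 5.68 CPM in WT and at 20.4, 11.1, 13.3 and 21.9 CPM in V321L mice (1.95 ± 0.310). Sf3b5, the smallest, was nearly absent from WT granule nuclei. It had 0, 0, 3 and 3 UMIs in the WT mice and 180, 162, 84 and 163 UMIs in the V321L mice, and no V321L mouse came near a WT mouse. Over all granule nuclei the ratio relative to all UMIs was 81.2 (95% interval 37.1 to 222, exact and for counting error only). The fitted log2 fold change of 5.82 ± 0.551 depends on the prior count of the fit, since 2 WT mice were at 0.

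**Figure D2:**
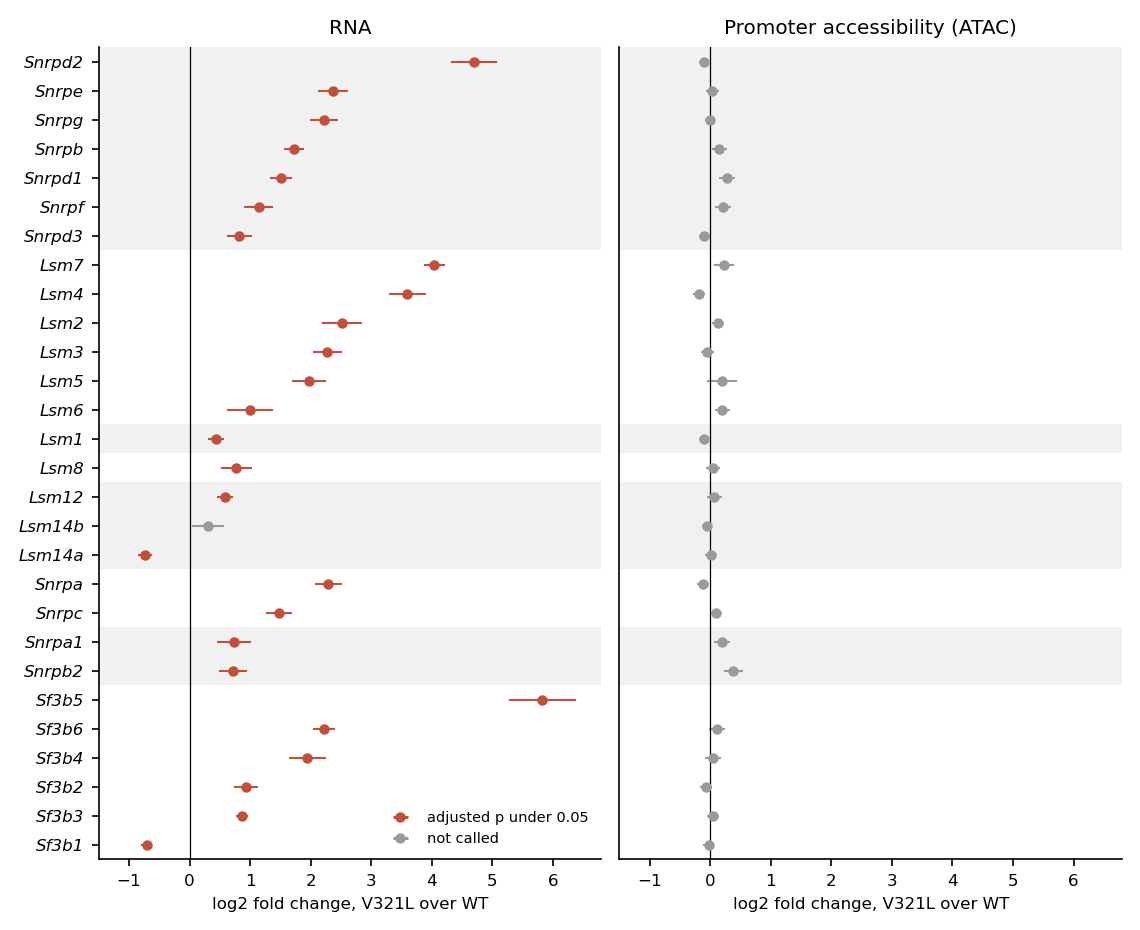
log2 fold change of V321L over WT in granule nuclei, for the RNA (left) and for the ATAC counts in peaks within 1 kb of the start site (right). Points are fitted values and bars are ± SE (4 mice per genotype), and red marks an adjusted p under 0.05. The RNA values spread from -0.74 to 5.82, while the promoter values stay between -0.19 and 0.38, with no promoter called. Sf3b5 has no promoter value, because the files place its start outside a peak.

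Summed over all 30 genes, these transcripts took 548, 460.1, 613 and 538 unscaled CPM in the granule nuclei of WT mice and 1421, 1123, 1045 and 1526 in those of V321L mice. The means were 539.9 ± 62.8 and 1279 ± 231 (SD, n = 4), a ratio of 2.37, and without Sf3b1 and Lsm14a the ratio was 3.85. Because those genes were left out for being lower in this comparison, the ratio had to rise. Within V321L the 2 mice with the higher sums, F1 and M2, were also those whose granule nuclei had the higher median mitochondrial shares. These were 0.872% and 1.08% against 0.299% in F2 and 0.544% in M1. The estimated share of free RNA (from barcodes with at most 100 UMIs) in granule nuclei was likewise higher in F1 and M2. It was 9.08% and 8.68% against 4.15% in F2 and 4.10% in M1. The part of either share in this result was not tested across mice. Among granule nuclei with a mitochondrial share between 0.2% and 0.6% in both genotypes, the sums were 563 ± 55.9 in WT and 1195 ± 202 in V321L mice, still without overlap. After thinning every granule nucleus to 1000 UMIs they were 551 ± 68.6 and 1271 ± 236.

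The same genes were also higher in the free RNA of V321L libraries, which was measured in barcodes with at most 100 UMIs. There the 30 genes took 1241, 970.0, 1094 and 1075 unscaled CPM in WT and 3655, 2967, 2998 and 3840 in V321L libraries, a ratio of 3.07 that exceeded the one in granule nuclei. In the free RNA 24 of the 30 genes were higher, beside 37.6% of all 11087 genes tested (75.1% in either direction), and 3 were lower, namely Sf3b1, Lsm14a and Lsm14b. Lsm7 was at 11.1 ± 3.21 CPM in the free RNA of WT and at 267 ± 40.5 CPM in that of V321L libraries, and Snrpg was at 9.45 ± 4.02 and 232 ± 35.5 CPM (SD, n = 4). Sf3b3, which was higher in granule nuclei, was at 45.2 ± 19.0 and 49.4 ± 8.35 CPM in the free RNA and was not called there. The share of free RNA among the UMIs of granule nuclei was estimated at 6.08% to 11.98% in WT and 4.10% to 9.08% in V321L mice. After subtracting it, 23 of 28 genes were higher and 2 lower, and the share of all genes called in that fit is not given here. The median log2 fold change in granule nuclei was then 1.46 in place of 1.49. Snrpf was at 0.57 in place of 1.14 and Lsm6 at 0.10 in place of 0.999, while Snrpd2 was at 5.60 in place of 4.70.

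The fold change of these genes fell with the length of the gene in the genome. The 5 genes with a span under 5 kb were all higher in V321L mice, with a median log2 fold change of 4.04, and the 10 genes between 5 and 10 kb were all higher at a median of 2.08. Between 10 and 30 kb 9 of 10 were higher, at a median of 0.88. Of the 3 genes over 30 kb, Sf3b3 was higher, while Sf3b1 (42.3 kb) and Lsm14a (45.9 kb) were the 2 lower genes. Over the 28 genes Spearman's rho between span and log2 fold change was -0.80, given without a test because genes share the same libraries.

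Among all genes of granule nuclei the fold change also fell with span. Over 11666 genes with a RefSeq span, Spearman's rho was -0.71. Of all genes under 5 kb 85.2% were higher, with a median log2 fold change of 2.33, and of all genes over 30 kb 12.9% were higher and 55.0% lower, with a median of -0.45. The spliceosome genes are short, with a median span of 9.13 kb against 27.6 kb for all genes with a span. Up to 30 kb their medians were above those of all genes in the same bin of span, which is no separate result. The genes were proposed from this comparison, and some passed the filter only through the V321L mice. The medians were 4.04 against 2.33 under 5 kb, 2.08 against 1.38 between 5 and 10 kb and 0.88 against 0.53 between 10 and 30 kb. Over 30 kb the medians were -0.71 and -0.45, but the spans were not alike. The 3 spliceosome genes there spanned 36.3 to 45.9 kb, while the longest of all genes spanned 2390 kb. In narrower bins the genes lay on both sides of the median of all genes. Lsm8 (0.77) was below that around 5.96 kb, 1.52, and Lsm7 (4.04) was above that around 2.21 kb, 2.83. Sf3b1 (-0.71) and Lsm14a (-0.74) were below the median of all genes around 43.3 kb, -0.11. Sf3b3 (0.86) was above that around 31.1 kb, 0.11. Whether the counts include reads from introns is not given in the sources used here, and the part of gene length in the result was not tested.

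**Figure D3:**
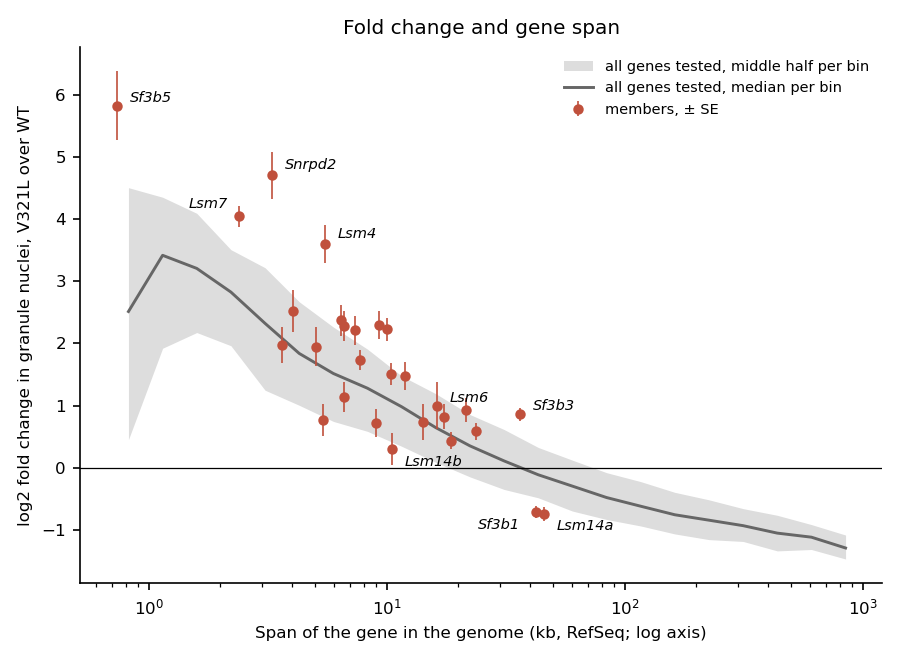
log2 fold change of V321L over WT in granule nuclei against the span of the gene in the genome (kb, log axis). Red points are the 28 genes with bars of ± SE, and the grey line and band are the median and the lower to upper quartile of all genes tested in bins of span. Points fall from Sf3b5, Snrpd2 and Lsm7 at the short end to Sf3b1 and Lsm14a at the long end. Sf3b5, Snrpd2 and Lsm7 lie above the upper quartile of all genes in their bins, and Sf3b1 and Lsm14a below the lower one.

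How many other genes of the splicing machinery were called as higher or lower depended on the scaling. Of 101 spliceosome genes in 7 further lists 99 were tested, of which 51 were higher and 13 lower in V321L granule nuclei, with a median log2 fold change of 0.33, beside 38.4% of all genes higher and 31.8% lower. With library sizes in place of TMM 79 were higher and 2 lower, beside 6639 higher and 2160 lower of all 12341 genes. With RLE size factors 40 were higher and 18 lower, beside 4399 higher and 4303 lower of all 12341 genes. The lists had been drawn up with earlier results of these data known. Nearest to the Sm genes were the partners of U1 and U2, of which 9 of 16 were higher and 3 lower. They ranged from Sf3a2, a subunit of SF3A, at 2.06 ± 0.451 to Dhx15, the helicase that takes spliceosomes apart, at -1.19 ± 0.121. Of the proteins of the U4/U6.U5 particle 13 of 18 were higher and 1 lower, with Txnl4a at 2.69 ± 0.396 and Prpf38a at -0.35 ± 0.143. With library sizes in place of TMM Prpf38a was at 0.10 ± 0.141, and its call was also lost by edgeR without F2 of WT (-0.31, adjusted p = 0.101), M2 of WT (-0.37, adjusted p = 0.0650), F1 of V321L (-0.31, adjusted p = 0.105), F2 of V321L (-0.29, adjusted p = 0.117) or M2 of V321L (-0.35, adjusted p = 0.0728). Of the Prp19 complex and its partners 9 of 13 were higher and 1 lower, with Bud31 at 2.28 ± 0.291 and Aqr at -0.46 ± 0.119. The SMN complex, which loads the Sm ring, had 6 of 13 tested genes higher and 0 lower at the adjusted threshold, led by Gemin6 at 1.87 ± 0.448.

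Lists that act beside the core had the following values, to be read beside those of all genes given above for each scaling. Of the proteins of the minor spliceosome 6 of 7 were higher, with Snrnp25 at 3.39 ± 0.611. Among SR and hnRNP proteins, which bind exons and introns and steer splice site choice, 6 of 23 were higher and 3 lower, at a median of 0.11, and with library sizes 18 were higher and 0 lower, at a median of 0.55, whereas with RLE size factors 2 were higher and 7 lower. Srsf7 was at 1.35 ± 0.120 and Hnrnpc at -0.57 ± 0.106. The partners of LSm1 and LSm14 in mRNA decay had a median of -0.37, with 2 of 9 higher and 5 lower, but with library sizes in place of TMM the median was 0.07, with 2 higher and 0 lower. In it Edc4, a scaffold of decapping, was at 0.78 ± 0.281, a call that was lost by edgeR without F1 of WT (0.69, adjusted p = 0.0701), without F2 of WT (0.66, adjusted p = 0.0806), without M2 of WT (0.56, adjusted p = 0.105) and without M2 of V321L (0.61, adjusted p = 0.0688). Xrn1, the exonuclease that degrades decapped mRNA, was at -0.47 ± 0.110. With library sizes in place of TMM the calls of Aqr (-0.02), Hnrnpc (-0.12) and Xrn1 (-0.03) were lost. Lists outside splicing were higher as well. All 83 tested genes of cytoplasmic ribosomal proteins were higher at a median of 3.96, as were 77 of 82 genes of oxidative phosphorylation at 2.86 and 30 of 35 proteasome genes at 1.57. Snrpn, the neuronal paralog of Snrpb that the naming rule leaves out, was at 57.8 ± 9.31 CPM in WT and 153 ± 47.6 CPM in V321L mice (1.41 ± 0.203, SD, n = 4).

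The difference in the sum of the 30 genes was present in every other class that was summed but microglia. Immature and vascular nuclei, which were also gated, were not summed. The WT mice F1, F2, M1 and M2 had 2, 0, 0 and 2 immature nuclei and 0 vascular nuclei each. GABAergic nuclei were at 442 ± 124 unscaled CPM in WT and 1001 ± 149.8 in V321L mice, and other excitatory nuclei at 431 ± 80.4 and 996 ± 165 (SD, n = 4 mice each). Astrocyte nuclei were at 556 ± 59.5 and 1125 ± 137, and oligodendrocyte nuclei at 818 ± 229 and 1338 ± 213. In these 4 classes every V321L mouse was above every WT mouse. The sums of all WT mice together rested on 298 UMIs in GABAergic, 467 in other excitatory, 161 in astrocyte and 88 in oligodendrocyte nuclei. Free RNA was subtracted in granule nuclei only, and its part in the other classes was not tested. Oligodendrocyte precursors were at 669.6 ± 368 and 1413 ± 192, from 15 UMIs in all WT mice together. Microglia were at 1242 ± 393 and 1374 ± 163 and overlapped, from 58 UMIs in WT and 370 in V321L mice. Without Sf3b1 and Lsm14a microglia stood at 499 ± 165 and 1067 ± 144, with no overlap. These genes were left out because they were lower in V321L granule nuclei of the same mice. The wider gap is therefore no separate result. In the WT microglia these 28 genes gave 19 of the 58 UMIs, and Sf3b1 and Lsm14a gave the rest.

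**Figure D4:**
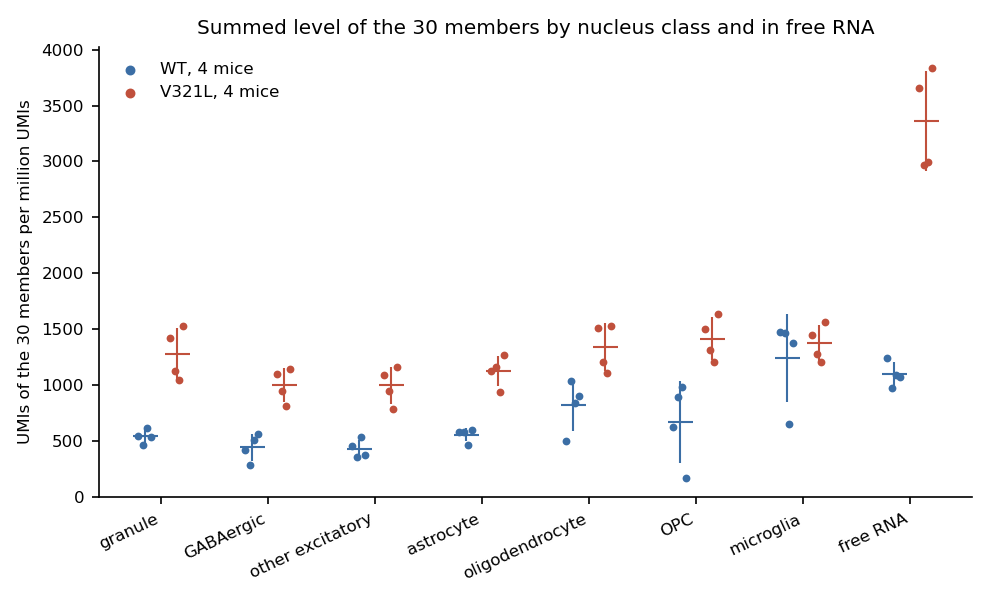
Summed level of the 30 genes (unscaled CPM) in the gated classes of nuclei except immature and vascular ones, and in free RNA. Points are mice (4 WT in blue, 4 V321L in red), and lines are the mean ± SD. V321L mice lie above WT mice in all of those shown but microglia, and the free RNA of V321L libraries has the highest values.

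Single genes could be fitted in few of these classes, because GABAergic, other excitatory, astrocyte and oligodendrocyte nuclei numbered 12 to 204 per mouse. In other excitatory nuclei 9 of the 30 genes passed the filter and 6 were higher in V321L mice, beside 24.2% of all genes tested called as higher and 43.4% called in either direction. Lsm7 was at 0, 0, 6.36 and 0 CPM in WT and at 88.2, 65.1, 68.0 and 70.6 CPM in V321L mice. Snrpd2 was at 0, 0, 12.7 and 0 CPM in WT and at 61.1, 32.6, 31.1 and 42.0 CPM in V321L mice. M1 was the only WT mouse with a read of either gene in these nuclei. Sf3b6 (3.32 ± 0.485), Snrpb (2.46 ± 0.445) and Sf3b2 (1.58 ± 0.306) were also higher on the log2 scale, with no overlap. In these nuclei every V321L mouse was above every WT mouse in 6 of the 9 genes and in 1125 of all 5363 genes tested. Lsm7, Snrpd2, Sf3b6 and Snrpb passed the filter through the V321L mice, in which they were high. Their calls as higher therefore follow in part from the filter. Sf3b3 was at 48.1, 32.1, 44.5 and 32.5 CPM in WT and at 70.1, 82.9, 87.8 and 68.7 CPM in V321L mice and was called as well. Lsm1 (0.97 ± 0.430), Sf3b1 (-0.33 ± 0.188) and Lsm14a (-0.13 ± 0.318) were not called, but Lsm1 was called without M1 of WT (1.38, adjusted p = 0.0175 by edgeR) and Sf3b1 without M2 of WT (-0.55, adjusted p = 0.0471). With library sizes in place of TMM the value of Lsm14a was 0.15.

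In GABAergic nuclei only Sf3b1 and Sf3b2 passed the filter. Sf3b2 was at 24.5, 15.3, 77.7 and 82.6 CPM in WT and at 124, 111, 77.9 and 122 CPM in V321L mice and was called (1.21 ± 0.413), beside 32.6% of all genes. The call was lost without F1 of WT (0.91, adjusted p = 0.117), F2 of WT (0.78, adjusted p = 0.153), F1 of V321L (1.14, adjusted p = 0.0834), F2 of V321L (1.19, adjusted p = 0.0560) or M2 of V321L (1.15, adjusted p = 0.0661), each by edgeR. Sf3b1 was at 227 ± 50.6 and 179 ± 36.9 CPM and was not called (-0.34 ± 0.246). The other genes were too rare for the fit, but their UMIs can be counted. Lsm7 had 0, 0, 1 and 0 UMIs in the GABAergic nuclei of WT mice and 12, 11, 8 and 13 in those of V321L mice. Snrpd2 had 0, 0, 0 and 1 against 21, 5, 2 and 8. Both were among the genes with the largest differences, and others differed little. Lsm12 had 16 UMIs in all WT and 20 in all V321L mice, and Lsm14a had 23 and 28. In astrocytes and oligodendrocytes only Sf3b1 was fitted, and it was called in neither (-0.11 ± 0.268 and -0.55 ± 0.295), beside 31.9% and 22.9% of all genes, nor did it reach an unadjusted p under 0.05, as 41.9% and 32.7% of all genes did.

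Whether the difference between genotypes itself differed between granule and GABAergic nuclei was tested as an interaction, with the mouse as a block. None of 26 genes tested was called by edgeR, and 0 had an unadjusted p under 0.05, beside 0.704% of all 10515 genes called and 9.05% with an unadjusted p under 0.05. The intervals were wide. For Sf3b1 the difference of log2 fold changes between the classes was 0.12 ± 0.247, for Sf3b2 0.05 ± 0.387 and for Sf3b3 0.82 ± 0.468, whereas for Snrpd2 it was -0.07 ± 1.96. For most of these genes the data cannot separate an equal from an unequal difference. Between female and male mice no gene of 28 was called for a different genotype effect in granule nuclei (0 called by edgeR, 1 with an unadjusted p under 0.05, beside 0.0% of 12341 genes called and 2.73% with an unadjusted p under 0.05). The 1 gene was Sf3b5, for which both WT females were at 0 UMIs, so that its fitted value depends on the prior count.

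The levels of the genes were also compared between the 2 neuron classes within the same mice. Some genes entered this fit mainly through the V321L mice in which they were high, since the GABAergic nuclei of all WT mice together held 0 UMIs of Lsm4, 0 of Sf3b4 and 1 each of Lsm7, Snrpd2 and Sf3b5. Relative to granule nuclei, 7 of 26 genes were lower in GABAergic nuclei by edgeR with the mouse as a block, and 0 were higher, beside 24.5% of all 10515 genes called as lower, 15.9% as higher and 40.4% in either direction. At an unadjusted p under 0.05 there were 10, beside 46.8% of all genes. The count moved with the processing. It was 21 of 30 without the filter on low counts, 4 of 26 with library sizes in place of TMM, 2 of 12 among WT mice only and 3 of 29 among V321L mice only. The share of all genes called is not given here for these other fits, so nothing is read from their counts. The 7 genes were Lsm8 (-1.28 ± 0.374, adjusted p = 0.00461), Lsm4 (-1.03 ± 0.396, 0.0331), Snrpb (-0.97 ± 0.255, 0.00167), Lsm14a (-0.93 ± 0.211, 0.000300), Sf3b3 (-0.75 ± 0.202, 0.00221), Lsm7 (-0.72 ± 0.252, 0.0189) and Sf3b1 (-0.33 ± 0.129, 0.0378), as log2 difference, SE and adjusted p. Snrpb was lower in GABAergic nuclei in 8 of 8 mice, at 17.6, 15.6, 18.1 and 16.6 unscaled CPM in granule and 6.598, 4.02, 12.7 and 4.52 in GABAergic nuclei of WT mice. In V321L mice it was at 79.1, 70.4, 58.5 and 98.7 in granule and 71.8, 56.7, 35.5 and 18.9 in GABAergic nuclei. Lsm14a and Sf3b3 were also lower in 8 of 8 mice, and Sf3b1 in 5 of 8. The GABAergic nuclei of WT mice held 1, 1, 1 and 1 UMIs of Snrpb. Lsm14a had 3, 8, 1 and 11 UMIs there, and Sf3b3 had 2, 2, 1 and 8. The GABAergic levels of these genes in single WT mice thus rest on few reads. Lsm14a was at 66.3, 55.8, 62.6 and 74.7 unscaled CPM in granule and 19.8, 32.2, 12.7 and 49.8 in GABAergic nuclei of WT mice, and at 54.9, 54.8, 48.4 and 53.9 against 44.8, 44.1, 35.5 and 25.1 in V321L mice. The call of Sf3b1 was lost without F2 of WT (-0.24, adjusted p = 0.170) and F1 of V321L (-0.30, adjusted p = 0.0954). That of Lsm4 was lost without F1 (-1.05, adjusted p = 0.0912) and F2 of V321L (-0.76, adjusted p = 0.141), and that of Lsm7 without F1 (-0.63, adjusted p = 0.104) and M1 of V321L (-0.63, adjusted p = 0.0729). With library sizes the calls of these 3 genes were lost. Among WT mice only, Lsm14a (-1.06 ± 0.312, adjusted p = 0.00583) and Sf3b3 (-1.14 ± 0.413, adjusted p = 0.0290) were called by edgeR, and among V321L mice only, Lsm8 (-1.38 ± 0.468, adjusted p = 0.0203), Snrpb (-0.71 ± 0.269, adjusted p = 0.0405) and Lsm7 (-0.59 ± 0.231, adjusted p = 0.0485).

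Promoters are shown for Lsm2 and Snrpe, which had the largest fold changes among the genes with at least 100 bases of RefSeq promoter outside the span of any gene, and for the lower gene Sf3b1. Given are up to 150 bases before the RefSeq start (GRCm38.p6, 5′ to 3′ on the strand of the gene), less those inside the span of the gene itself. They lie at chr17:34981704-34981853 (Lsm2, plus strand), chr1:133610281-133610430 (Snrpe, minus strand) and chr1:55027502-55027628 (Sf3b1, minus strand). Capitals mark TTCCGG, the reverse complement of CCGGAA, a form of the sites of ETS factors.
Lsm2: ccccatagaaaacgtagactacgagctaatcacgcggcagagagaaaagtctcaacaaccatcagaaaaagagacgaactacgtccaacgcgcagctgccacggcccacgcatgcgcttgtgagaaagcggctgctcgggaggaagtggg
Snrpe: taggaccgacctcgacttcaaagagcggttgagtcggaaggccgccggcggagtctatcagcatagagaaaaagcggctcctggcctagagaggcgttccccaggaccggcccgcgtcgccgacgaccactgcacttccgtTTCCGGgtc
Sf3b1: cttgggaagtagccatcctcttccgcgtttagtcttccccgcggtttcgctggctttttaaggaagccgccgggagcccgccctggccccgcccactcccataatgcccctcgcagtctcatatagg
The GC content of the 3 is 55.3%, 63.3% and 61.4%, and of the motifs searched here only this one, in Snrpe, is found in them. Motifs were searched as exact letters, so other forms of the same sites are neither marked nor counted. A promoter sequence was found for 23 of the 30 genes. In the 250 bases before the RefSeq start nearest to that in the files, on both strands and including bases inside a gene's span, TGCGCA, a core of the site of NRF1, stood in 7 of the 23 (30.4%) against 6.61% of 27025 promoters, and CCGGAA in 9 (39.1%) against 12.3%. TATAAA stood in 1 (4.35%) against 12.9%, CCAAT in 9 (39.1%) against 34.4%, and AAGATGG, the core of YY1 sites, in 0 against 4.53%. The median GC content was 58.4% against 52.0%. Such matches describe the letters of a window and do not show that a factor binds there.

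Accessible chromatin at the promoters was measured in the same granule nuclei and is a readout that the naming of the genes did not use. A peak within 1 kb of the start site was called in all 8 libraries for 29 of the 30 genes (96.7%), against 40.4% of all 32285 genes. The latter include the many genes too low to be tested in granule nuclei. None of these 29 promoters was called between the genotypes by edgeR (0 called, 1 with an unadjusted p under 0.05, beside 0.0% of 13034 promoters called and 7.88% with an unadjusted p under 0.05). The median log2 fold change was 0.05 over the 29 promoters and -0.00 over all. The 1 was Snrpb2, at 25.8, 28.7, 21.7 and 20.1 ATAC CPM in WT and 28.7, 31.3, 34.2 and 29.3 in V321L mice (0.38 ± 0.157, adjusted p = 0.578 by edgeR). 1 gene, Lsm10, had every V321L mouse above every WT mouse, beside 2.67% of all promoters.

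The genes with the largest RNA differences had promoters with small ones. The promoter of Snrpd2 was at 151, 136, 143 and 133 ATAC CPM in WT and at 128, 127, 133 and 139 in V321L mice (-0.10 ± 0.0783). That of Lsm7 was at 54.4, 51.5, 48.1 and 56.6 in WT and at 81.7, 50.3, 47.6 and 75.01 in V321L mice (0.23 ± 0.165), where the mice F1 and M2 again stood above F2 and M1. F1 and M2 were also the V321L libraries with the fewest peaks, 42140 and 36556 against 94282 and 130470, and the part of ATAC depth in this order was not tested. The log2 fold change lay between -0.26 and 0.06 for Snrpd2 and between -0.10 and 0.56 for Lsm7, taken as ± 2 SE, while those of their RNA were 4.70 and 4.04. Lsm4 was at -0.19 ± 0.0923, and of the genes whose RNA was lower, Sf3b1 was at -0.02 ± 0.0912 and Lsm14a at 0.01 ± 0.101. The files place the start of Sf3b5 at a position without a peak. At the start that RefSeq gives, which lay in a peak in all 8 libraries, Sf3b5 was at 63.1 ± 3.02 in WT and 70.2 ± 2.82 in V321L mice (0.14 ± 0.0863, adjusted p = 0.697 by edgeR). 12 of the 30 genes (40.0%) have the start of another gene within 1 kb, against 21.4% of all genes, so that a peak there can serve both. Such a pair is Snrpd2 with Qpctl and Lsm7 with Sppl2b.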

How the data were processed

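RNA and accessible chromatin were measured in nuclei of the dentate gyrus with 10x Multiome. The authors deposited, for each of 8 mice, a matrix of raw counts, with UMIs per gene and ATAC counts per peak over all barcodes. The submitters' processing notes name Cell Ranger, Seurat, Signac and the build mm10, and the study's methods give Cell Ranger ARC 2.0.2. Peaks were called per library. Nuclei were kept above 500 UMIs, 250 genes and 500 ATAC counts, with the upper limits of the study's methods, and Scrublet doublets beyond the mean + 2 SD of a library were left out. A class was gated by at least 3 UMIs of its markers and at least 2 times those of the next class. Counts were summed per mouse and class and fitted in edgeR 4.0.16 by quasi-likelihood (R 4.3.3, TMM, filterByExpr, Benjamini-Hochberg adjusted p under 0.05 over all genes tested). For each gene, ATAC counts in peaks within 1 kb of the start site were summed. Nuclei of 1 mouse were never treated as replicates.

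The members and the gene lists were chosen with earlier results of these data known. All members are given by value, with values per mouse for the Sm ring, Lsm2 to Lsm8 and SF3B, and at most 3 genes per further list, namely the largest rise and fall among those called. Each library came from its own mouse. Intervals of count ratios cover counting error only. Alternatives were library sizes, RLE size factors, no filter on low counts, DESeq2 1.42.0, sex as a term, a replicate block, each mouse left out, nuclei thinned to 1000 UMIs, other filters on nuclei, a stricter gate, clusters in place of the gate, free RNA subtracted and another window or depth for promoters. A band of mitochondrial shares, the RefSeq start of Sf3b5 and fits between classes within 1 genotype were added after the data had been seen. Only the fit between genotypes in granule nuclei and that of its interaction with class were tested on simulated data.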

Additional observations from a re-analysis of the deposited data

Results flagged for a closer look

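In 6 of 134 groups of 4 mice 1 mouse stood apart from the other 3 by Dixon's test, and chance flags about 5% of groups. Snrpa1 was at 12.9 CPM in granule nuclei of M2 of WT, against 6.14 to 7.29 in the other WT mice. Snrpb2 was at 10.9 CPM in granule nuclei of F2 of V321L, against 16.6 to 17.7 in the other V321L mice. At the promoter of Lsm1, F1 of V321L was at 65.9 ATAC CPM against 76.8 to 78.8, and at that of Lsm11 the same mouse was at 65.9 against 50.5 to 50.9. Summed over the 30 genes, astrocytes of M1 of WT were at 468 unscaled CPM against 578 to 599, from 12 nuclei. Microglia of M1 of WT were at 656 against 1376 to 1473, from 2 nuclei.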

How the results depend on the processing

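Over the 28 genes tested in granule nuclei 584 of 610 refits left the direction and the call as they were, 24 lost the call, 2 gained it and 0 turned the direction. Calls were lost at least once by 7 genes, Snrpd3, Snrpa1, Snrpb2, Lsm1, Lsm6, Lsm8 and Lsm12. Lsm14b was called with library sizes (0.74) and after subtraction of free RNA (1.07). With library sizes in place of TMM the median log2 fold change of the genes was 1.94, 4 genes were called between GABAergic and granule nuclei, Prpf38a turned to 0.10 in granule nuclei and Lsm14a to 0.15 in other excitatory nuclei. Without the filter on low counts up to 30 genes were tested. The genes called between genotypes were then 8 in GABAergic, 13 in other excitatory, 9 in astrocyte and 5 in oligodendrocyte nuclei. Between GABAergic and granule nuclei 21 of 30 were called, against 7 of 26 with the filter. Between these classes 2 were called among WT mice only and 3 among V321L mice only. Of the other spliceosome genes 39 were called after thinning to 1000 UMIs and 27 in the band of mitochondrial shares, where fewer genes were tested. Leaving out each mouse gave 0 to 3 genes called in GABAergic, 0 to 1 in astrocyte, 25 to 28 in granule nuclei and 5 to 10 between GABAergic and granule nuclei. The causes of these changes were not tested, and the shares of all genes called in these refits are not given here. Nothing is therefore read from the counts. With the replicate block 27 genes were called in granule nuclei as without it, at a median of 1.496, and 56 of the other spliceosome genes. The deviations of same-numbered mice from their genotype means had correlations between -0.11 and 0.27, which cannot settle whether the numbers pair mice. The fit on nuclei with 0 mitochondrial UMIs could not be run, because V321L mice had 0 to 4 such granule nuclei. Few UMIs limit all classes but granule nuclei.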
